A study of Sus scrofa domesticus with 4 samples.

Results

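The transforming growth factor beta (TGF-beta), activin and SMAD genes of porcine myometrium were taken as 10 genes: the ligands TGFB1, TGFB2 and TGFB3, the activin subunit INHBA, the activin antagonist FST, the receptors TGFBR1 and TGFBR2, and the signal transducers SMAD2, SMAD3 and SMAD4. They were found on the array as every probe whose RefSeq accession belongs to 1 of these pig genes, which gave 17 of 43603 probes and covered 8 of the 10 genes. TGFB2 and TGFBR2 were not analysed here. SMAD4 had 5 probes, TGFB1, TGFB3, INHBA, FST and SMAD3 had 2 each, and TGFBR1 and SMAD2 had 1 each. All 17 probes were well above background in both channels on all 4 arrays and passed the filter on dim probes. Probes of 1 gene share its transcript and are not independent of each other.

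TGF-beta and activin ligands bind pairs of serine/threonine kinase receptors, a type II receptor such as TGFBR2 that phosphorylates a type I receptor such as TGFBR1. The activated type I receptor phosphorylates SMAD2 and SMAD3, which join SMAD4 and enter the nucleus to regulate transcription. Follistatin, the product of FST, binds activin and blocks it. In the uterus these ligands are known for roles in matrix production, smooth muscle differentiation and the remodelling that accompanies early pregnancy, when the pig conceptuses attach to the endometrium.

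The adiponectin group was explants of myometrium, the smooth muscle layer of the uterine horn, kept for 24 h in medium holding 10 µg/ml adiponectin, after 2 h of preincubation. The control group was explants of the same kind cultured without treatment. Tissue of both groups came from mature Large White x Polish Landrace gilts, aged 7-8 months, on days 15 to 16 of gestation. Adiponectin is a hormone secreted mainly by fat tissue, and the series asked how it affects gene expression in this tissue. Each of the 4 Agilent 2-colour arrays held 1 treated and 1 control RNA. The labels count 4 gilts and 4 experiments with duplicate cultures, but no label ties an array to a gilt or says how duplicates were combined, so the p-values speak of the spread among these arrays alone, and some of it may be technical. By the dye fields of the labels, arrays 1 and 3 carried treated RNA in Cy5, while arrays 2 and 4 carried it in Cy3. Ratios were turned by these fields, whereas the labelling protocol's text describes treated RNA in Cy5 alone. Slide 1 held arrays 1 to 3 (scan 1), and array 4 came from slide 2 (scan 2).

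A ratio is the log2 of treated over control processed intensity on 1 array, and the fitted log2 change is the limma treatment coefficient over the 4 arrays with a dye coefficient for each probe, given ± its moderated SE (n = 4 arrays). Of the smooth muscle markers, 7 of 12 could be tested, among them DES, CNN1 and ACTA2, and all 7 were well above background in every channel. Turned to treated over control, the ratios of the tested probes were correlated between arrays with Pearson's r from -0.31 (arrays 2 and 3) to 0.25 (arrays 2 and 4). Probes are not independent replicates. An explant holds several cell types, and fewer cells of a type and less RNA per cell cannot be told apart in its RNA.

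None of the 17 probes of TGF-beta, activin and SMAD genes passed the test between adiponectin-treated and control explants. With limma, 0 of 17 probes were called at a Benjamini-Hochberg adjusted p under 0.05, the same share as the 0.0% of the 22133 probes tested, where 0 were called higher and 0 lower. At an unadjusted p under 0.05, limma counted 1 of 17 probes, a SMAD4 probe, against 5.71% of all tested probes (839 or 3.79% higher, 425 or 1.92% lower). The fitted change was above 0 for 13 of the 17 probes and below 0 for 4, with a median of 0.11, beside -0.0023 and 49.5% above 0 over all tested probes. The fitted changes of the 17 probes ran from -0.19 to 0.36. The same sign was seen on all 4 arrays for 4 of the 17 probes, both FST probes and 2 SMAD4 probes, against 12.6% of all tested probes. Of these 4 probes, 3 lay above 0 on every array and 1 below, against 6.36% and 6.22% of all tested probes. Treated and control intensities did not separate for any of the 17 probes, against 0.511% of all tested probes. With 4 arrays, the half-width of the 95% interval had a median of 0.37 over the 17 probes, which is a fold of 1.29. An exact permutation test over the signs of 4 ratios cannot reach a p of 0.05. On slide 1 alone, that is without array 4, the changes of the brightest probes ran from 0.06 for TGFB1 to 0.36 for TGFB3.

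**Figure D1:**
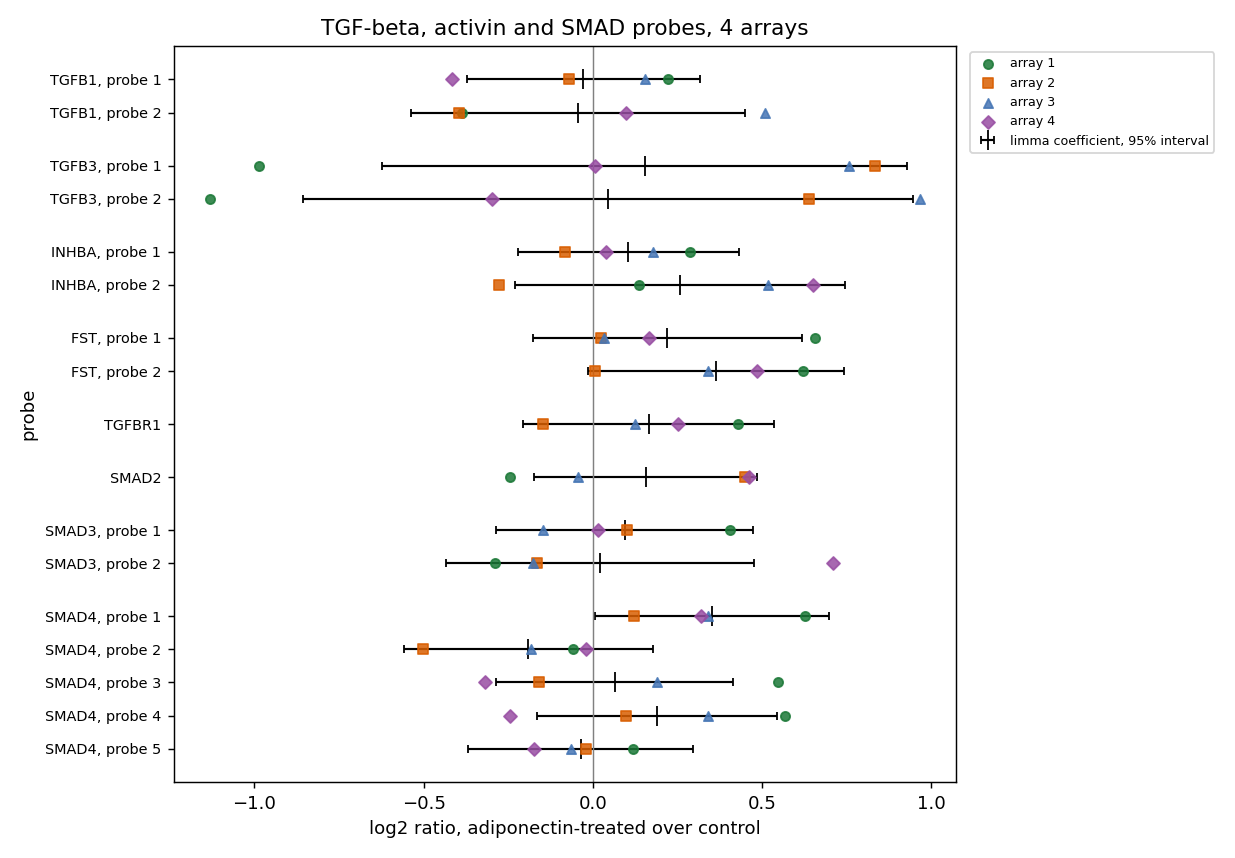
Log2 ratio of adiponectin-treated over control intensity (x axis) for each of the 17 probes (y axis, grouped by gene, brightest probe first), with 1 marker per array. The black tick and bar give the limma coefficient and its 95% interval; the TGFB3 markers spread widest, and all 8 FST markers lie above 0.

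TGFB3, a TGF-beta isoform, had the widest differences between arrays among these genes, and they ran in opposite directions. Its brightest probe had 6574, 16923, 14877 and 25172 intensity units in treated explants on arrays 1 to 4, against 13018, 9486, 8799 and 25039 in control explants. The treated signal was thus 1.98-fold lower on array 1, 1.78-fold and 1.69-fold higher on arrays 2 and 3, and nearly equal on array 4, and the groups overlapped. The second TGFB3 probe was likewise lowest on array 1 and highest on arrays 2 and 3, with log2 ratios of -1.13, 0.64, 0.97 and -0.30, beside -0.99, 0.84, 0.76 and 0.01 for the brightest probe. On the processed signals the 2 probes differed by at most 0.30 on any array, while the arrays differed by 1.82 and 2.10. From median spot intensity with normexp and loess, the ratios on array 4 were 0.38 and -0.10, further apart than on the processed signals. Of all tested probes, 6.21% had a larger SD over the 4 ratios than the brightest TGFB3 probe and 4.52% a larger one than the second. The fitted log2 changes were 0.15 ± 0.31 and 0.04 ± 0.36 (limma adjusted p = 0.951 and 0.988), with 95% intervals of -0.62 to 0.93 and -0.86 to 0.95. Leaving out array 1 gave the brightest probe a change of 0.59, and leaving out array 4 gave 0.36. The sign turned when array 2 (-0.05) or array 3 (-0.28) was left out.

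Array 4 held the highest TGFB3 intensity in both groups, 25172 in treated and 25039 in control explants. It held the lowest intensity of the brightest FST, INHBA, SMAD2, SMAD3 and SMAD4 probes in both groups as well. Array 4 also had a slide and a scan of its own, which cannot be told apart from the explants it held.

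**Figure D2:**
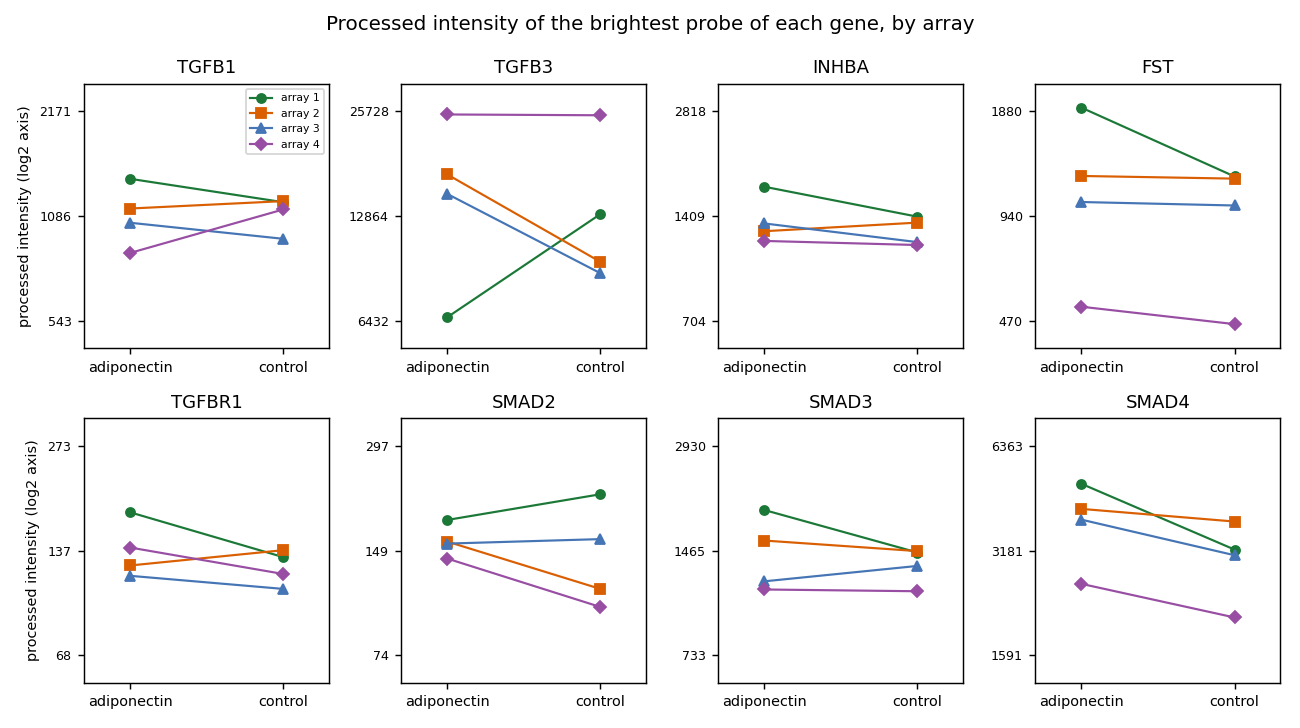
Processed intensity (log2 y axis, arbitrary scanner units, the same fold range in every panel) of the brightest probe of each of the 8 genes in adiponectin-treated and control explants, with a line joining the 2 channels of an array. TGFB3 lines cross, and the FST lines all lie lower in control, with array 4 the lowest in both groups.

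TGFB1, the most widely studied isoform, showed no common direction. Its brightest probe had 1387, 1139.8, 1037 and 849.5 intensity units in treated explants and 1189, 1197, 933 and 1133 in control explants on arrays 1 to 4. The treated signal was higher on arrays 1 and 3 and lower on arrays 2 and 4, so its signs followed the dye orientation, and the probe's dye coefficient was 0.22. The dimmer TGFB1 probe had ratios of -0.39, -0.40, 0.51 and 0.10, opposite in sign to the brightest probe on arrays 1 and 4. The fitted changes of the 2 probes were -0.03 ± 0.14 and -0.04 ± 0.20 (limma adjusted p = 0.979 and 0.978), and the intervals of -0.37 to 0.32 and -0.54 to 0.45 include changes in either direction. Without array 4 the brightest probe stood at 0.06, and without arrays 1 and 2 in turn the dimmer probe stood at 0.18 and 0.08.

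INHBA encodes the beta A subunit shared by activin A and inhibin A. Its brightest probe had 1709, 1273, 1340.1 and 1194 intensity units in treated explants, against 1401, 1348, 1184 and 1162 in control explants on arrays 1 to 4. The treated signal was higher on arrays 1, 3 and 4 and lower on array 2, with array 1 the farthest apart at 1.22-fold, and the groups overlapped. The dimmer probe had the same 4 signs, with ratios of 0.14, -0.28, 0.52 and 0.65. The fitted changes were 0.11 ± 0.13 and 0.26 ± 0.20 (limma adjusted p = 0.919 and 0.878), with intervals of -0.22 to 0.43 and -0.23 to 0.75. The dimmer probe stood at 0.03 without array 4. On array 4 the brightest probe had a ratio of 0.54 from median spot intensity with normexp and loess, in place of 0.04 from the processed signals.

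FST, whose product follistatin neutralises activin, was the gene of this group with all its probes above 0 on all 4 arrays, although neither probe passed the test. The brightest probe had 1925, 1224, 1030.2 and 515 intensity units in treated explants and 1219.8, 1203, 1007 and 459 in control explants on arrays 1 to 4. The dimmer probe had 722, 548, 462 and 278 in treated explants and 469, 545, 365 and 199 in control explants. Both probes were farthest apart on array 1, at 1.58-fold and 1.54-fold higher, and nearly equal on array 2. The groups overlapped: the brightest probe ranged 3.74-fold among treated and 2.66-fold among control explants. The fitted changes were 0.22 ± 0.16 and 0.36 ± 0.15 (limma adjusted p = 0.870 and 0.856), with intervals of -0.18 to 0.62 and -0.02 to 0.74. Among the 510 named genes with 2 tested probes, 8 (1.57%) had both probes above 0 on all 4 arrays, and 5.1% had both of the same sign. Without array 1 the changes were 0.06 for the brightest and 0.29 for the dimmer probe.

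TGFBR1, the type I receptor that phosphorylates SMAD2 and SMAD3, gave 176, 124, 116 and 139 intensity units in treated explants, against 131, 137, 106 and 117 in control explants on arrays 1 to 4. The treated signal was higher on arrays 1, 3 and 4 and lower on array 2, the same signs as INHBA. Its fitted change was 0.16 ± 0.15 (limma adjusted p = 0.893), with an interval of -0.20 to 0.53, and it was 0.07 without array 4 and 0.09 without array 1.

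The receptor-activated SMADs showed no change past the test. SMAD2 had 182, 158, 156 and 141 intensity units in treated explants and 216, 115, 161 and 102 in control explants on arrays 1 to 4. Its ratios were below 0 on arrays 1 and 3, where treated RNA was in Cy5, and above 0 on arrays 2 and 4, where it was in Cy3. The fit gave this split to the dye coefficient, -0.30, and left a change of 0.16 ± 0.13 (limma adjusted p = 0.890, interval -0.17 to 0.49). SMAD3 on its brightest probe had 1917, 1566, 1196 and 1133 in treated explants and 1447, 1461, 1324 and 1119.7 in control explants. The treated signal was higher on arrays 1, 2 and 4 and lower on array 3, and array 4 was nearly equal. Its fitted change was 0.09 ± 0.15 (limma adjusted p = 0.938, interval -0.29 to 0.47) and -0.04 without array 1. The other SMAD3 probe was dim, with 56.8, 68.2, 45.3 and 48.5 in treated and 69.3, 76.4, 51.2 and 29.6 in control explants, and its change was 0.02 ± 0.18 (limma adjusted p = 0.989).

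SMAD4, the common partner of the receptor-activated SMADs, gave the largest fitted change of a brightest probe and also probes that disagreed. The brightest probe had 4952, 4194, 3906 and 2553 intensity units in treated explants, against 3203, 3857, 3086 and 2044 in control explants on arrays 1 to 4. The treated signal was higher on every array, from 1.09-fold on array 2 to 1.55-fold on array 1, and the groups overlapped. The fitted change was 0.35 ± 0.14, a fold of 1.28, with a 95% interval of 0.01 to 0.70 (limma unadjusted p = 0.0468, adjusted p = 0.856). Leaving out 1 array gave changes from 0.28 to 0.42 for this probe. A second probe lay below 0 on all 4 arrays, with 591, 406, 487 and 360.0 in treated explants and 615, 575, 552 and 365 in control explants, and a change of -0.19 ± 0.15 (limma adjusted p = 0.882). The other 3 probes had changes of 0.06 ± 0.14, 0.19 ± 0.14 and -0.03 ± 0.13. On array 1 the ratio was above 0 on 4 of the 5 probes, while on array 4 it was above 0 only on the brightest. From median spot intensity with normexp and loess, 2 other probes, among them the one below 0 on all arrays, also stood above 0 on array 4, at 0.04 and 0.09. The mean of the 5 probes gave a change of 0.08. Of the 53 named genes with 5 tested probes, as SMAD4 has, 43.4% had fitted changes of both signs, and 7.55% had changes further apart than those of SMAD4. Which part of the SMAD4 transcript each probe reads was not analysed here.

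**Figure D3:**
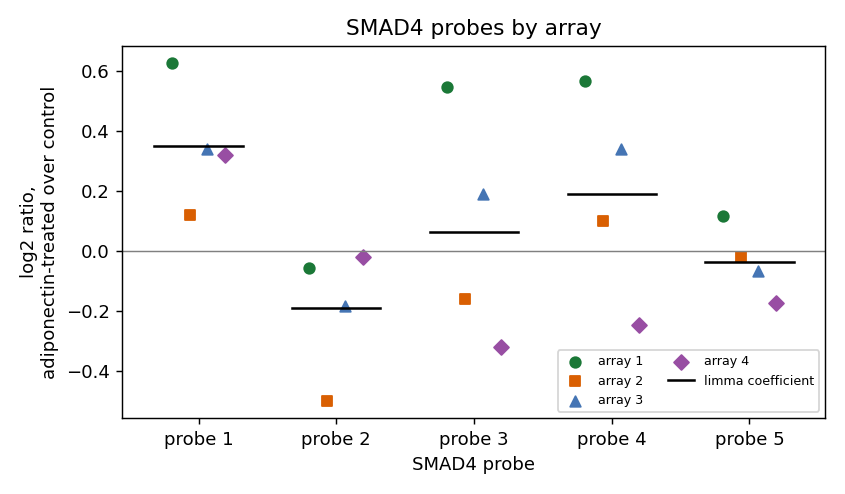
Log2 ratio of adiponectin-treated over control intensity (y axis) for the 5 SMAD4 probes (x axis, brightest first), 1 marker per array, with the limma coefficient as a black line. The first probe lies above 0 and the second below 0 on all 4 arrays.

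By the 4 ratios of its brightest probe, SMAD4 was closest to MUC13, TFAM and CKAP4 among 2133 other named genes, with root-mean-square differences of 0.09, 0.12 and 0.14 on the log2 scale over 4 arrays. With so few arrays this likeness is common, and 142 genes lay within 0.3 of SMAD4. For TGFB3, which was chosen after its values were seen, 4 genes lay within 0.3, the closest being TPM1, a tropomyosin of the contractile apparatus, at 0.27. TPM1 had ratios of -0.81, 0.36, 0.86 and 0.16. RAB27A, a small GTPase of vesicle transport, followed at 0.29 and SPARCL1, a matricellular protein, at 0.29.

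Other genes of the pathway gave no call either. Of 104 further symbols of ligands, receptors, SMADs, inhibitors, regulators and targets, 38 could be tested on 1 probe each, and limma called 0 at an adjusted p under 0.05. At an unadjusted p under 0.05 there were 0 higher and 3 lower (7.89%), against 66 higher (3.09%) and 52 lower (2.44%) of all 2134 named genes tested. The median change was 0.01 beside -0.02 for the named genes. The 3 lower genes were ENG, ITGAV and FBN1, each below 0 on all 4 arrays. ENG, endoglin, a TGF-beta co-receptor of endothelium, had 1233, 723, 817 and 1138 intensity units in treated explants, against 1958, 1119, 906 and 1439 in control explants, a change of -0.45 ± 0.16 (limma adjusted p = 0.856). ITGAV, the integrin alpha V chain that helps release TGF-beta from its latent complex, stood at -0.35 ± 0.13, with its 5 probes between -0.35 and -0.04. FBN1, fibrillin 1, the microfibril protein that anchors latent TGF-beta, stood at -0.42 ± 0.16 on a probe of 45.5 to 139.7 intensity units in treated and 73.9 to 214 in control explants.

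By role, counting TGFB1, TGFB3, INHBA, FST, TGFBR1 and the SMADs in their lists, no list held a called gene. The median changes ran from -0.05 to 0.12, beside -0.02 over all named genes tested. The ligands had 10 of 24 tested with a median of -0.01. The smallest unadjusted p belonged to AMH at -0.15 ± 0.14, to GDF9, and to GDF15 at 0.13 ± 0.16. GDF9 was well above background in treated explants on 2 arrays and in control explants on 3. It thus passed the filter through the control channel alone, and its change is not given. The receptors had 7 of 14 tested with a median of -0.03, where ENG was followed by the activin type II receptor ACVR2A at -0.19 ± 0.14. The SMADs had 5 of 8 tested, all 5 above 0, against 45.6% of all named genes tested. Their median was 0.12, and SMAD1, which serves the bone morphogenetic protein (BMP) branch, stood at 0.12 ± 0.17. The extracellular inhibitors and latent complex had 6 of 23 tested with a median of -0.05, and THBS1, a matrix protein that can activate latent TGF-beta, stood at 0.25 ± 0.15. The intracellular regulators had 5 of 20 tested with a median of 0.07, with the ubiquitin ligase TRAF6 at 0.26 ± 0.13, the immunophilin FKBP1A, which binds the type I receptor, at -0.15 ± 0.15 and the kinase MAP3K7 at 0.12 ± 0.13.

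No target gene of TGF-beta passed the test. Of 26 symbols, 13 were tested, 10 above 0 and 3 below, against 45.6% above 0 of all named genes tested. Their median was 0.09, with medians by array of 0.53, 0.04, -0.08 and -0.09. The smallest unadjusted p belonged to the matrix glycoprotein TNC at -0.34 ± 0.15 (its 2 probes stood at -0.34 and 0.08), the collagen crosslinking enzyme LOX at 0.34 ± 0.20 and the matricellular protein POSTN at 0.30 ± 0.21. The following genes were chosen after their values were seen. ID1, an inhibitor of DNA binding, had ratios of 1.80, 0.04, -0.66 and 0.29 on arrays 1 to 4. SMAD7, the inhibitory SMAD, had 0.71, -0.33, -0.56 and 0.48. ID1 and SMAD7 were highest on array 1 and lowest on array 3. ACTA2, the smooth muscle actin, was lowest on array 1 and highest on array 3, with -0.91, -0.01, 1.58 and -0.25. CTGF, a connective tissue growth factor, had 0.53, 0.32, 0.27 and -0.77, lowest on array 4. The fitted changes of ID1, SMAD7, ACTA2 and CTGF were 0.37 ± 0.39, 0.08 ± 0.26, 0.10 ± 0.39 and 0.09 ± 0.21, and limma adjusted p lay between 0.906 and 0.973. Without array 1 and without array 3 the changes were -0.25 and 0.98 for ID1, -0.24 and 0.40 for SMAD7, and 0.73 and -0.52 for ACTA2.

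**Figure D4:**
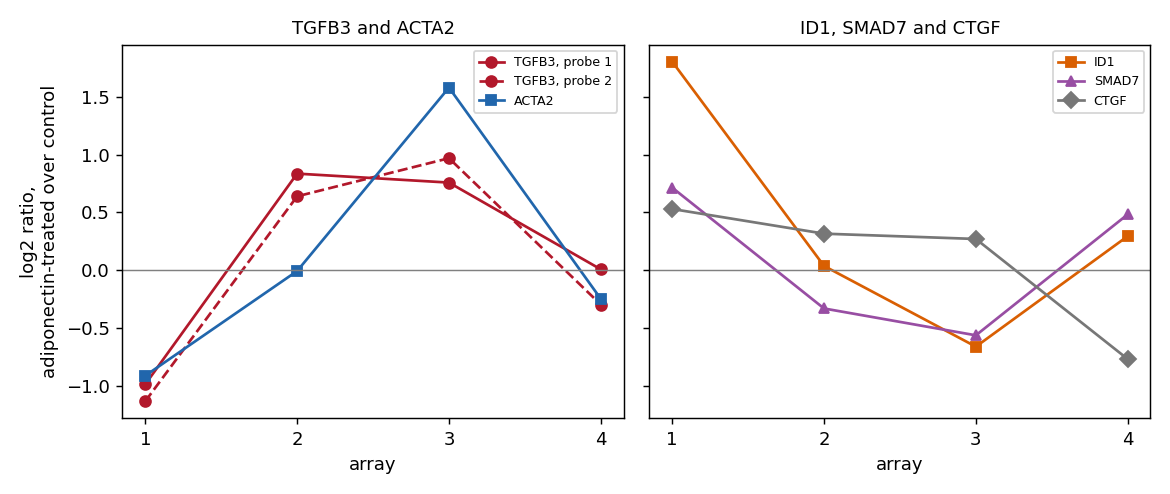
Log2 ratio of adiponectin-treated over control intensity (y axis) on arrays 1 to 4 (x axis), for both TGFB3 probes and ACTA2 (left) and for ID1, SMAD7 and CTGF (right). Lines join the values of a probe and mark no order of the arrays; TGFB3 and ACTA2 are lowest on array 1, where ID1 and SMAD7 are highest.

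The ratios of cell type markers varied between arrays as well. The 7 smooth muscle markers had median ratios of -0.66, -0.15, 0.58 and -0.25 on arrays 1 to 4, and their summed intensity was 316878 to 490474 in treated and 270039 to 563069 in control explants. For the 9 macrophage markers tested, the medians were 0.50, -0.23, 2.22 and 0.63, with sums of 2151 to 9280 in treated and 2026 to 5573 in control explants, and all 9 had a fitted change above 0. The 5 epithelial markers had medians of 0.34, 1.24, -0.55 and 0.98, with sums of 3691 to 7965 in treated and 2941 to 6823 in control explants. The 4 endothelial markers had medians of 0.07, -0.23, 0.11 and 0.59, with sums of 6194 to 8395 in treated and 5455 to 8575 in control explants. The 2 stromal markers DCN and LUM had medians of 0.31, -0.53, -0.37 and -0.03, with sums of 40933 to 51437 in treated and 36712 to 56549 in control explants. Of the lymphocyte markers 3 of 12 were tested, CD3G, NKG7 and IL7R. Because CD3G and IL7R each passed the filter through the channel of 1 group alone, sums are not given for this list. The ratios on arrays 1 to 4 were -0.33, 2.29, 0.04 and -0.22 for CD3G, well above background in 5 of 8 channels. For NKG7 they were 0.28, -0.65, 1.08 and 0.16. The fitted change of NKG7 was 0.22 ± 0.21. CD3G was well above background in treated explants on 2 arrays and in control explants on 3. It thus passed the filter through the control channel alone, and its change is not given. Its ratio on array 2 came from 30.1 intensity units in treated and 6.1 in control explants. IL7R, chosen after its values were seen, ranged over 4 arrays between 28.8 and 83.4 intensity units in treated explants, against 7.4 and 20.6 in control explants. It was well above background in treated explants on 3 arrays and in control explants on none. It thus passed the filter through the treated channel alone, and no fold or p-value is given. CD3D, CD8A and MS4A1 were not well above background in any channel. The smooth muscle median and both TGFB3 probes were lowest on array 1, and on array 3 the smooth muscle median was highest while both TGFB3 probes were high. On array 2 the smooth muscle median was below 0 and both TGFB3 probes were above 0. On array 4 the second TGFB3 probe, at -0.30, lay close to the smooth muscle median of -0.25, while the brightest TGFB3 probe, at 0.01, did not. The part of these cell types in the TGFB3 and ENG values was not tested.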

How the data were processed

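The authors deposited 1 scanner file per array, made with Agilent Feature Extraction 10.7.3.1, per the file headers. It holds spot and background intensity per channel, background-subtracted and dye-normalised processed intensity, and a log10 ratio of Cy5 over Cy3, per the file headers. The log10 ratio was divided by log10 of 2 and its sign turned on the 2 arrays with treated RNA in Cy3. The authors' deposited series table of log2 values matched these ratios within 0.01 for nearly all probes well above background, so its scale and direction were settled for these probes; its column medians were -0.10, 0.13, -0.14 and 0.16, and its handling of dim probes stays unknown. Spots marked as outliers were left out and spots of a probe averaged. Of each array's spots, 46.1% to 51.0% were well above background in Cy3 and 54.9% to 63.1% in Cy5, and none was saturated. The deposited log10 ratio was exactly 0 for 18.1% to 28.9% of spots, and none of the 17 probes had such a ratio.

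A probe was tested when well above background on at least 3 arrays in the treated or the control channel with a value on every array, which left 22133 of 43603 probes. Limma 3.58.1 under R 4.3.3 fitted treatment and dye coefficients, two-sided, with Benjamini-Hochberg adjustment over all tested probes, and the fit was tested on simulated data. RefSeq accessions were named through a table of assembly Sscrofa11.1, without coordinates, since the files name no build: 6700 of 7125 probes with an accession received 1 symbol. A gene other than these 8 was represented by its brightest probe. Alternatives were normexp with an offset of 50 and loess on median intensity, the series table, median centring, no dye coefficient, other filters on dim probes, exact zeros as missing, the mean of a gene's probes, and omission of each array.

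The 10 genes, the pathway and marker lists and the tests were chosen with earlier results of these data known. From each pathway list the text names the genes past the threshold and up to 3 with the smallest unadjusted p. The 6 erythrocyte markers had no matched probe, so that list gave no result.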

Additional observations from a re-analysis of the deposited data

Results flagged for a closer look

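In 1 of 17 sets of 4 array ratios, a single array stood apart from the rest, against about 0.85 sets by chance alone. This was the dim SMAD3 probe, at 0.71 on array 4 and at -0.29, -0.16 and -0.18 on arrays 1 to 3, with 48.5 intensity units in treated and 29.6 in control explants on array 4. From median spot intensity with normexp and loess the ratio on array 4 was 0.14, and the brightest SMAD3 probe stood at 0.02 there.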

How the results depend on the processing

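No alternative called a TGF-beta, activin or SMAD probe. Over all tested probes limma called 0 probes in every alternative except the omission of array 3, which called 12, all higher; omissions of 1 array thus ranged from 0 to 12. With normexp and loess on median intensity, 0 probes were called. At an unadjusted p under 0.05, 759 were higher and 375 lower of 22133 tested, and 3 of the 17 probes passed, all higher. These were the brightest SMAD4 probe, another SMAD4 probe and the dimmer FST probe, so they do not stand for 3 genes. Without the filter on dim probes the unadjusted split over all probes was 1644 higher and 1518 lower. Of 96 log2 changes of the 8 genes under 12 alternatives, 92 kept their direction and 4 turned. Each was the change of a gene's brightest probe or, in 1 alternative, of the mean of its probes. The series table, the lack of a dye coefficient, other filters on dim probes and exact zeros as missing left these changes virtually unaltered. Median centring moved them only slightly. Such settings could hardly turn a sign, so much of this count says little about direction. The 4 that turned came from omitting 1 array, where the changes ran from -0.28 to 0.59 for TGFB3, from -0.11 to 0.059 for TGFB1 and from -0.044 to 0.23 for SMAD3. Dimmer probes lay outside this count, and some turned with processing. With normexp and loess the dim SMAD3 probe went from 0.02 to -0.03, and the dimmer TGFB1 probe from -0.04 to 0.0003. With 3 arrays, 1 of them is the sole array of its dye orientation and counts as much as the remaining 2 combined. Over all 12 alternatives the change ran from 0.08 to 0.42 for SMAD4, lowest with the mean of its probes, and from 0.06 to 0.38 for FST. The smallest adjusted p of any of the 8 genes was 0.458. No paired analysis beyond this was possible because each ratio already sets treated against control RNA on 1 array. Signal over background limits the dim SMAD3 probe and, less so, SMAD2 and TGFBR1.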

Other observations

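Ligands and receptors of the BMP branch, which shares SMAD4 and some receptors with TGF-beta and activin, were named after their values were seen. BMP2 had ratios of 0.43, -0.69, -0.56 and 0.13 on arrays 1 to 4 and a change of -0.17 ± 0.23. BMP4 had -0.61, -0.09, 0.50 and 0.24 and 0.01 ± 0.21, and BMP7 had ratios of 0.36, -0.24, 0.25 and -0.47. No sign was common to all 4 arrays for these ligands. BMP7 was well above background in treated explants on 3 arrays and in control explants on 2. It thus passed the filter through the treated channel alone, and its change is not given. The receptors BMPR1A and BMPR1B stood at -0.09 ± 0.13 and 0.15 ± 0.17, and BMPR2 at -0.03 ± 0.21 with 0.92 on array 3. The limma adjusted p of the BMP ligands and receptors with a change given lay between 0.913 and 0.996. ID2 and ID3, inhibitors of DNA binding that respond to BMP, stood at 0.02 ± 0.25 and 0.18 ± 0.20, and like ID1 they were highest on array 1, at 0.65 and 1.04.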
